A study of Mus musculus with 10 samples.

Results

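The extracellular matrix genes examined here comprise the collagens, the laminins, the thrombospondins, fibronectin, tenascin C, reelin and the components of perineuronal nets. They were selected as protein-coding genes whose GRCm38 symbol belongs to one of these families, which yielded 72 of the 21998 protein-coding genes in the count tables. One of the 72, Col4a3bp, matched by its name only: it encodes a ceramide transfer protein and no matrix molecule, so 71 matrix genes remained. They fell into 44 collagens, 11 laminin chains, 7 other glycoproteins and 9 perineuronal matrix genes. Ribosome-bound mRNA was isolated by translating ribosome affinity purification (TRAP) from the hippocampus of MC-TRAP mice (Drd2-Cre;Eef1a1LSL.eGFPL10a/+) on a C57BL/6 background, adult males about 10 weeks old in the study's methods. In these mice Cre recombinase under the control of the dopamine D2 receptor gene switches on a GFP-tagged ribosomal protein in hilar mossy cells (MCs), the glutamatergic neurons of the dentate hilus. All animals carried both transgenes and the labels name no treatment, so the 5 Dorsal and 5 Ventral libraries differ by the part of the hippocampus that was dissected. In the study's methods each hippocampus was cut by length into a shorter dorsal and a longer ventral part. Dorsal and ventral tissue was therefore taken from the same mice. The mice named there are too few for separate pools of 5 in every library, so Dorsal and Ventral libraries share mice. The labels do not say which ones do. The main fit used no pairing, so its p-values do not account for this sharing. Each library was made from tissue pooled from 5 mice, and the driver also labels some GABAergic interneurons and neurons of the ventral subiculum, which was cut away at dissection, although some of it may have remained.

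Collagens are trimers of alpha chains that build fibrils, basement membrane networks or, in the transmembrane forms, protrude from the cell surface. Laminins are trimers of 1 alpha, 1 beta and 1 gamma chain and organise basement membranes, which in the adult brain lie mainly around blood vessels and under the meninges. Perineuronal nets surround selected neurons with hyaluronan chains, to which lecticans (aggrecan, brevican, neurocan, versican) bind with the help of link proteins, while tenascin R crosslinks the lecticans. Reelin is a large secreted glycoprotein that guides neuronal positioning during development and modulates synapses in the adult hippocampus.

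Total counts on genes ranged from 11138676 to 20594364 per library, so that 3 counts corresponded to 0.146 to 0.269 CPM, that is, counts scaled to a common library total. Between 21.8% and 33.9% of the fragments of the dorsal libraries overlapped no feature used in the counting, against 11.6% to 19.3% in the ventral libraries. The ranges did not overlap, and the counts do not tell whether such fragments lay in introns or outside genes. All 7 mossy cell markers examined were detected in every library, with 3 called dorsal-enriched and 2 ventral-enriched by the criteria used throughout, and 2 of 6 granule cell markers and 1 of 6 CA pyramidal cell markers were called dorsal-enriched. With replicates 1 to 3 only, 2 of the 5 mossy cell calls remained (Calb2 and Gria2) and none of the granule cell or CA pyramidal cell calls. Calb2, which encodes calretinin and is known as a marker of ventral MCs, averaged 65.0 ± 9.30 CPM in Dorsal and 615 ± 94.4 CPM in Ventral (SD, n = 5 each). The interneuron markers Gad2 and Sst were also abundant, at mean levels of 2848 and 453 CPM in Dorsal and 3168 and 714 CPM in Ventral.

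The replicates were not evenly spaced. In both groups replicates 4 and 5 lay between replicates 1 and 3: of the 43 member genes that passed the expression filter, 34 and 29 had a value between those of Dorsal 1 and Dorsal 3 in Dorsal 4 and Dorsal 5, whereas Dorsal 2 did so for 16. The corresponding numbers were 24 and 27 for Ventral 4 and Ventral 5 and 17 for Ventral 2. When each library was described as a weighted sum of replicates 1 and 3, the median squared residual over all genes with sufficient counts was 1.44 and 1.014 times the sampling variance for Dorsal 4 and 5, 2.21 and 3.38 times for Ventral 4 and 5, and 8.22 and 7.12 times for Dorsal 2 and Ventral 2. The labels name 5 replicates per group and give no relation among them, so calls are given with all 10 libraries and, as counts, with replicates 1 to 3 of each group only, summed levels and ratios with all 10 libraries, and p-values with all 10 libraries count replicates 4 and 5 as separate samples. With replicates 1 to 3 only, edgeR's quasi-likelihood test called 162 of 15689 genes of any type in either direction (1.03%), against 4291 of 16806 (25.5%) with all libraries. With replicates 3 to 5 only, which also compares 3 with 3 libraries, 5214 of 16003 genes were called (32.6%).

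To ask which matrix genes differ between dorsal and ventral MC-enriched populations, dorsal and ventral libraries were compared in a single fit over all genes with more than 1 CPM in at least 2 libraries. Enrichment was called where the Benjamini-Hochberg adjusted p fell below 0.05 and the mean (CPM + 1) of the groups differed by a log2 ratio of more than 0.58 in either direction. Of the 72 members, 43 passed the expression filter. Of these, 13 were called dorsal-enriched, 4 ventral-enriched and 26 neither. The dorsal calls were Col1a1, Col1a2, Col4a5, Col6a3, Col9a3, Col18a1, Col25a1, Lama4, Lama5, Tnc, Ncan, Vcan and Tnr, and the ventral calls included Col6a6, Col12a1 and Lama1. Among all 13549 protein-coding genes tested, 11.4% were called dorsal-enriched and 10.3% ventral-enriched, compared with 30.2% and 9.30% of the 43 tested members. This comparison is limited by the filter, because 8 of the tested members exceeded 1 CPM in dorsal libraries only and 2 in ventral libraries only. Of the 33 members above 1 CPM in at least 1 library of each group, 7 were dorsal-enriched and 2 ventral-enriched. The share of all protein-coding genes under that condition was not computed. The 11.4% and 10.3% are also the shares to set beside the class and list counts below, which come from the same fit. The median log2 fold change of all 43 tested members, with those above 1 CPM in 1 group only included, was 0.49, against -0.04 for all tested protein-coding genes.

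The values of all dorsal libraries lay above those of all ventral libraries for 10 of the 43 tested members, and below them for 1, Col12a1. Over all tested protein-coding genes these shares were 8.5% and 9.58%. The 10 were Col6a3, Col9a3, Col25a1, Lama4, Lama5, Lamb1, Ncan, Vcan, Tnr and Hapln4, of which Lamb1 and Hapln4 missed the fold threshold. With replicates 1 to 3 only, none of the 37 members tested in edgeR was called, 11 had an unadjusted p below 0.05, as did 19.7% of all genes tested, and the lowest adjusted p was 0.0685, for Tnr. The 13 called members that could still be tested kept the sign of their fold change in these libraries. With replicates 3 to 5 only, 24 of 42 tested members were called.

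**Figure D1:**
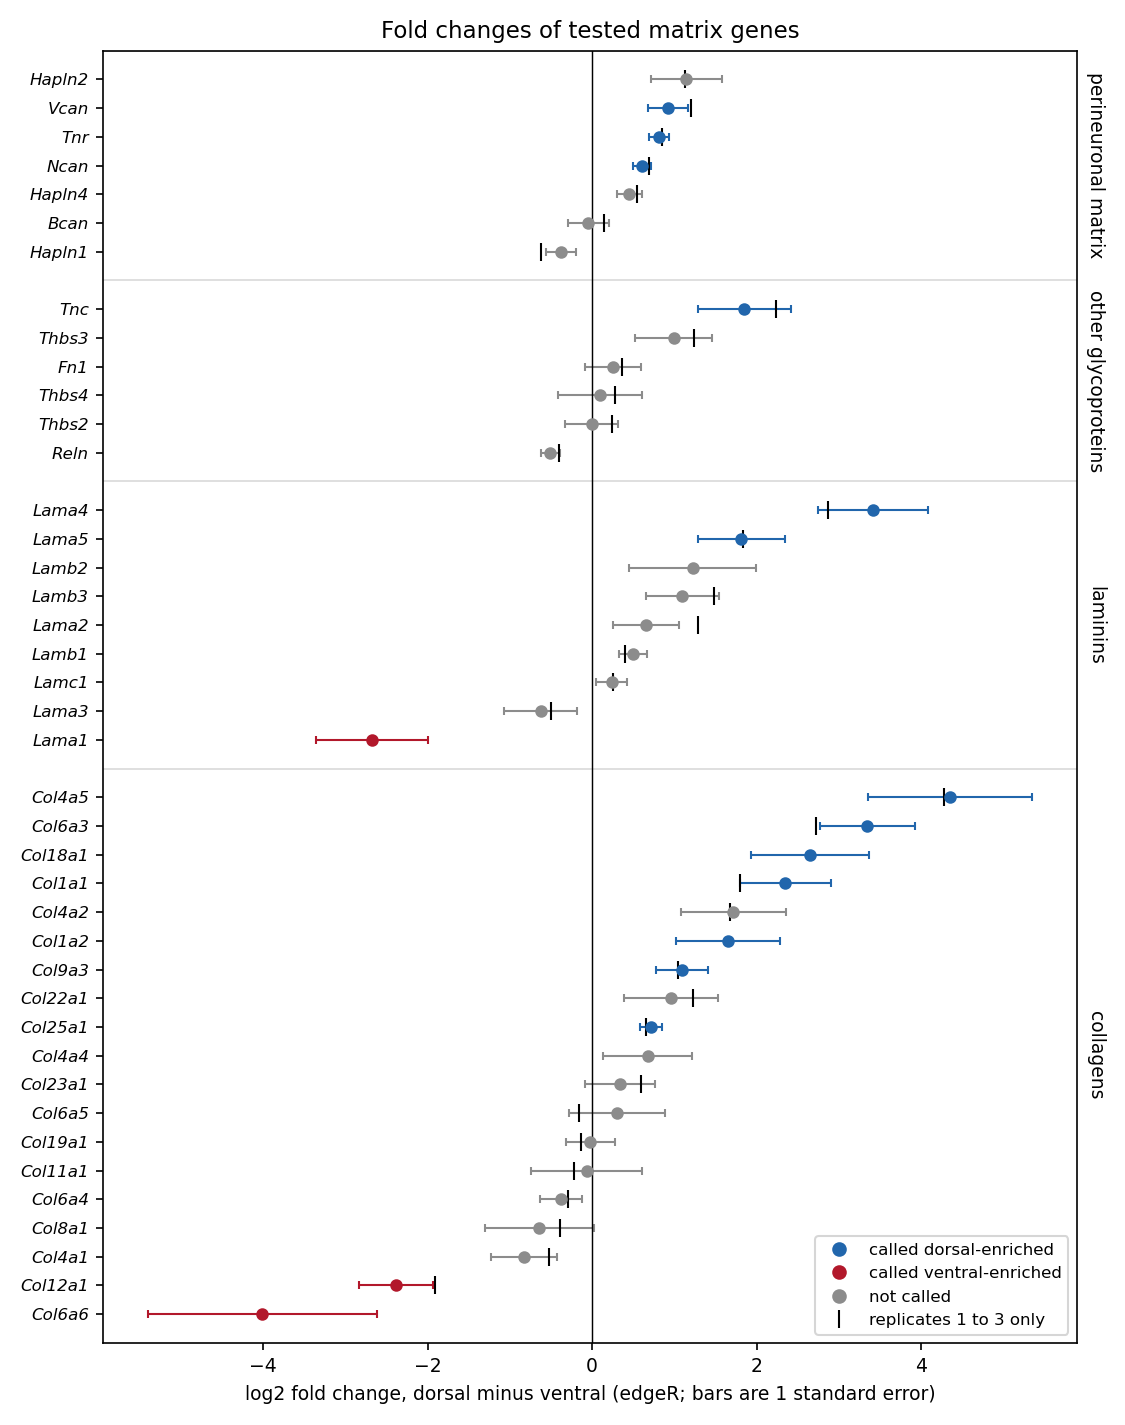
Log2 fold change (dorsal minus ventral) of 41 of the tested matrix genes, sorted within each class; bars show 1 standard error, blue and red points mark genes called dorsal- and ventral-enriched, grey points genes not called, and black ticks the estimate from replicates 1 to 3 only. The 13 blue points lie between 0.61 and 4.35 and the 3 red points between -4.01 and -2.38.

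Levels were compared between genes only after division by exonic length. On this scale (mean CPM per kilobase of exon over all libraries) the perineuronal matrix dominated, with Ncan at 15.8, Tnr at 12.1, Hapln1 at 10.6 and Hapln4 at 6.64, followed by Reln at 5.42 and Col25a1 at 4.19. The 9 perineuronal genes together accounted for 63.6% to 70.4% of the summed level per kilobase of the 71 matrix genes in each library, and the 44 collagens for 11.7% to 17.4%. Most collagens and laminins were rare: of the 13549 tested protein-coding genes, Ncan ranked at position 2737, Tnr at 3405 and Col25a1 at 6616, while Lama4 ranked at 13457 and Col6a6 at 13541. Summed per kilobase, the perineuronal genes reached 49.4 to 61.2 in dorsal and 40.6 to 45.9 in ventral libraries, the collagens 11.5 to 14.3 and 7.01 to 11.4, both without overlap, whereas the laminins (3.79 to 4.47 and 2.73 to 4.31) and the other glycoproteins (7.17 to 7.66 and 6.60 to 9.57) overlapped.

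**Figure D2:**
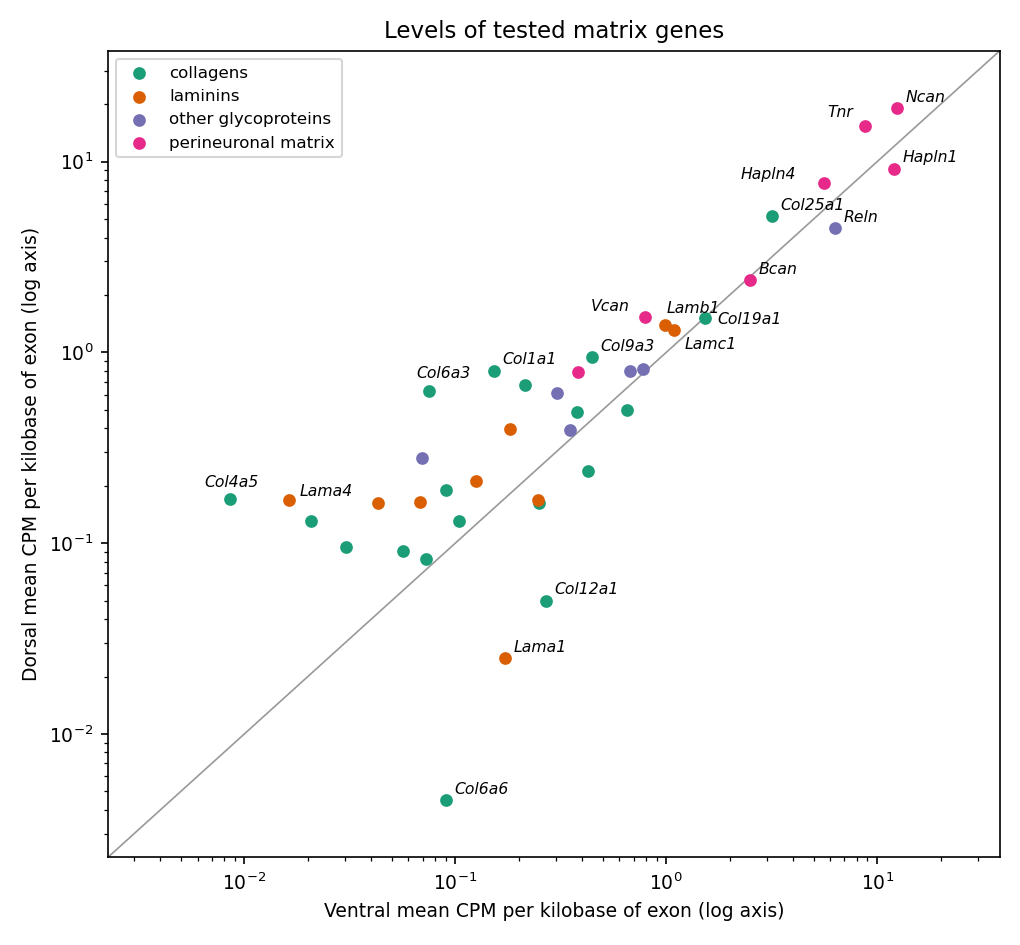
Mean level in Dorsal against mean level in Ventral, in CPM per kilobase of exon on log axes, for 41 of the tested matrix genes, coloured by class; the line marks equal levels. Ncan, Tnr, Hapln1, Hapln4, Reln and Col25a1 occupy the upper right, while Vcan and Hapln2 lie lower, at 1.53 and 0.786 in Dorsal and 0.795 and 0.382 in Ventral, and the genes farthest from it, such as Col6a6, Col4a5 and Lama4, lie below 0.2 on both axes.

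Among the perineuronal matrix genes, the crosslinker tenascin R and the lecticans neurocan and versican were higher in dorsal libraries, brevican did not differ detectably, and none of the link proteins was called. Of the 9 genes in this class, 7 were tested, 3 were called dorsal-enriched and none ventral-enriched. The shares over all tested protein-coding genes were 11.4% and 10.3%. Aggrecan (Acan), the lectican regarded as the core of most nets, and the link protein Hapln3 did not pass the filter, with 1.56 and 0.141 CPM in their highest library. Tnr (chr1:159523769-159931729, + strand of GRCm38, as are all coordinates here) measured 208, 191, 209, 188 and 195 CPM in Dorsal 1 to 5 and 88.1, 113, 142, 98.9 and 121 CPM in Ventral 1 to 5. All dorsal values lay above all ventral ones, and the closest pair was Dorsal 4 and Ventral 3. The log2 fold change was 0.82 ± 0.12 (SE), with an edgeR adjusted p of 0.000383.

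Ncan (chr8:70093085-70120873) measured 138, 114, 150, 147 and 137 CPM in Dorsal 1 to 5 and 83.2, 83.9, 85.0, 93.2 and 103 CPM in Ventral 1 to 5. Its groups did not overlap, and the log2 fold change was 0.61 ± 0.11 (SE, edgeR adjusted p = 0.00119). Vcan (chr13:89655312-89742509) measured 16.1, 32.6, 25.2, 14.8 and 21.6 CPM in Dorsal 1 to 5 and 13.7, 7.29, 11.04, 14.5 and 10.98 CPM in Ventral 1 to 5. Here the groups almost touched, at Dorsal 4 and Ventral 4, and the spread within the dorsal group was wide. The log2 fold change of Vcan was 0.92 ± 0.24 (SE, edgeR adjusted p = 0.0108). Bcan showed 9.71 ± 1.40 CPM in Dorsal and 10.2 ± 3.54 CPM in Ventral (SD, n = 5 each), a log2 difference of -0.05 ± 0.25 (SE, edgeR adjusted p = 0.899).

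The windows of 250 bases before the annotated start sites of these 3 called genes and of Reln are shown because these are the called genes of the perineuronal class and the abundant glycoprotein with the opposite sign. They were taken from the RefSeq promoter table for GRCm38.p6, which held 53 of the 72 members, and run 5′ to 3′ on the strand of the gene. Capitals mark GC boxes (GGGCGG) and TATA boxes (TATAAA) found on either strand by exact match. The windows are chr1:159523519-159523768 for Tnr on the + strand, and chr8:70120845-70121094 for Ncan, chr13:89742513-89742762 for Vcan and chr5:22344706-22344955 for Reln, all on the - strand.
Tnr: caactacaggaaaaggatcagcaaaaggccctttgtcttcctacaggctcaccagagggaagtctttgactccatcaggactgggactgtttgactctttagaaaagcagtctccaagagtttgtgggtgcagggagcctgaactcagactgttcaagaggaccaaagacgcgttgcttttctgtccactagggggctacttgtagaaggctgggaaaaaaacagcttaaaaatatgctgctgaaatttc
Ncan: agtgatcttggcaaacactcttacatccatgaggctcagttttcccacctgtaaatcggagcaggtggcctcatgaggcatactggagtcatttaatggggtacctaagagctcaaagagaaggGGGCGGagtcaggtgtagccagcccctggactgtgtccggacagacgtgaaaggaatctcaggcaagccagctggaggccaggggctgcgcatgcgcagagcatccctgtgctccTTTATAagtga
Vcan: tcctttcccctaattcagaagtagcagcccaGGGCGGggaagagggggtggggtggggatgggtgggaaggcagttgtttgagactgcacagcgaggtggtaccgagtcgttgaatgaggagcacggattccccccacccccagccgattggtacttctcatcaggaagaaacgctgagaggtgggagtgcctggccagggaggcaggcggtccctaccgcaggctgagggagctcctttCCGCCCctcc
Reln: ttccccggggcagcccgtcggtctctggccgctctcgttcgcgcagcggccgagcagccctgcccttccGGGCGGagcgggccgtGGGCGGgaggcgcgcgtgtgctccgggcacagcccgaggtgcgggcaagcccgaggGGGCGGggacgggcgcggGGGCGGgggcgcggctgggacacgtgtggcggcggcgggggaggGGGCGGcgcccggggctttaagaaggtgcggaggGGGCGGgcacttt
A GC box was present in 32.7% and a TATA box in 12.4% of the 32851 windows of the same length in the table. The Tnr window held neither motif, the Ncan window 1 of each, the Vcan window 2 GC boxes and the Reln window 6 GC boxes. The GC content was 46.8% for Tnr, 54.4% for Ncan, 62.4% for Vcan and 80.0% for Reln, with a median of 52.4% over all windows. Neither motif was found in all 3 windows of the dorsal-enriched genes.

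Link proteins stabilise the bond between lecticans and hyaluronan. Hapln1, the most abundant of them here, showed 54.3 ± 9.90 CPM in Dorsal and 70.9 ± 17.9 CPM in Ventral (SD, n = 5 each), a log2 difference of -0.38 ± 0.18 (SE, edgeR adjusted p = 0.12). When GC content and length were corrected for, this difference became -0.94 with an edgeR adjusted p of 0.00324, and Hapln1 was still not called, since the fold threshold applied to the uncorrected CPM. Hapln4 showed 30.2 ± 2.58 CPM in Dorsal and 21.9 ± 3.82 CPM in Ventral without overlap, and its log2 fold change of 0.45 ± 0.15 (SE, edgeR adjusted p = 0.0311) stayed under the fold threshold. Hapln2, a link protein of nodes of Ranvier, was low, at 1.86 ± 0.63 CPM in Dorsal and 0.906 ± 0.48 CPM in Ventral (log2 fold change 1.15 ± 0.43, SE, edgeR adjusted p = 0.0509).

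Each measured lectican gene has a link protein gene as a neighbour, and the differences of neighbours could be of unlike sign or size. Ncan and Hapln4, which lie 2.22 kb apart on chromosome 8 on opposite strands, had log2 differences of 0.61 and 0.45. Their ratio of levels per kilobase was 2.30 to 2.61 in dorsal and 1.89 to 3.04 in ventral libraries, so the groups overlapped. Vcan and Hapln1, 43.7 kb apart on chromosome 13, had log2 differences of 0.92 and -0.38. The ratio of Vcan to Hapln1 was 0.0998 to 0.361 in dorsal and 0.0307 to 0.0905 in ventral libraries, without overlap. Bcan and Hapln2, 21.5 kb apart on chromosome 3, had log2 differences of -0.05 and 1.15, with ratios of 2.25 to 3.99 in dorsal and 2.65 to 11.1 in ventral libraries.

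**Figure D3:**
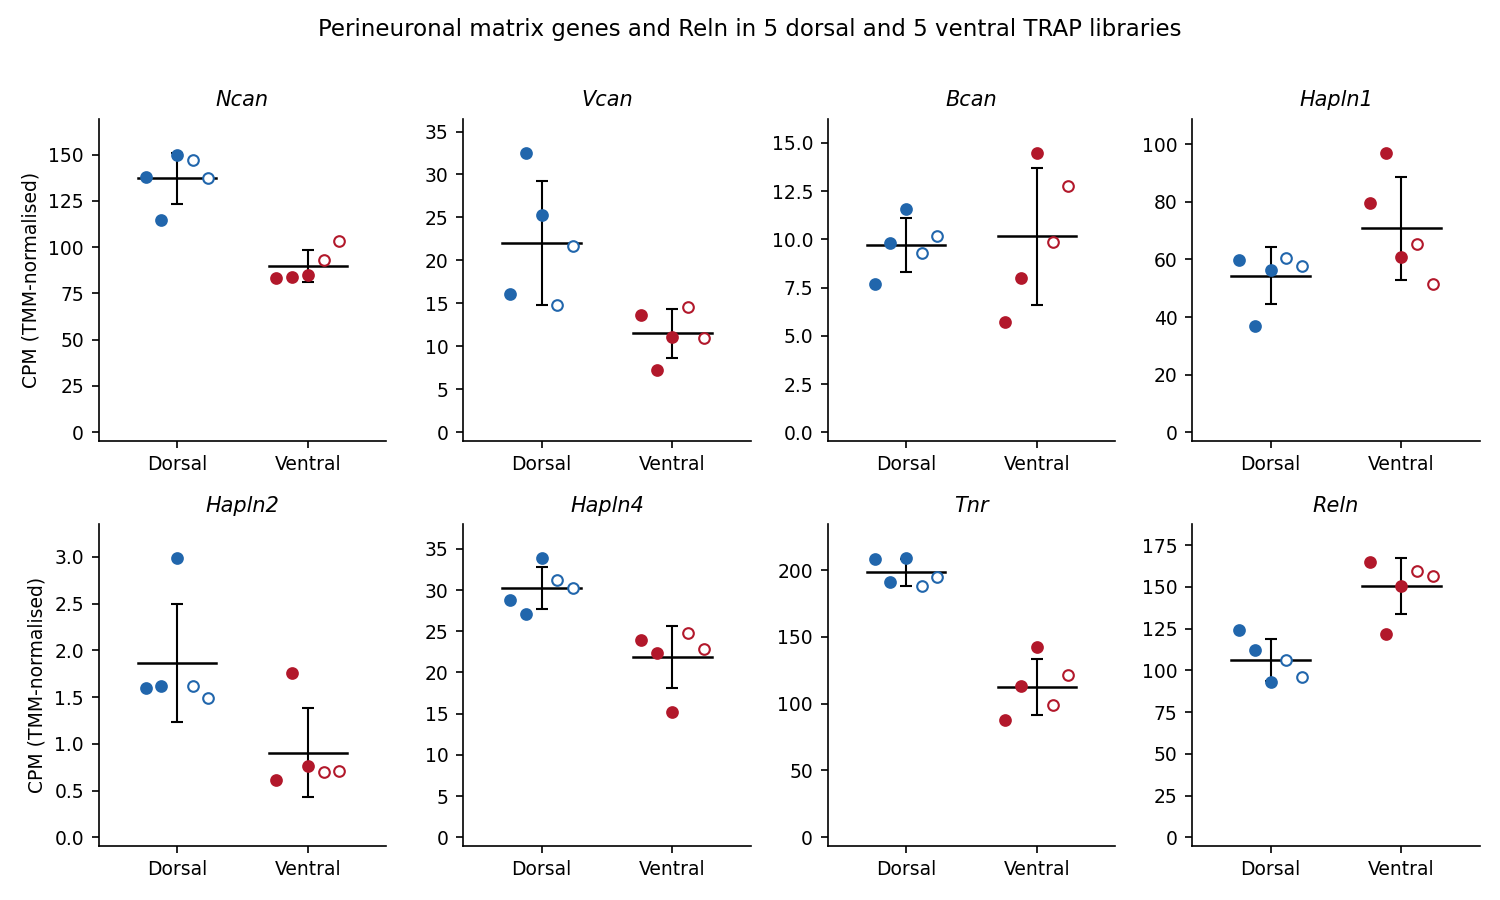
TMM-normalised CPM of the 7 tested perineuronal matrix genes and Reln in each library; blue and red are Dorsal and Ventral, filled points are replicates 1 to 3, open points replicates 4 and 5, lines are means and whiskers the SD (n = 5). Tnr, Ncan, Vcan and Hapln4 separate completely, while Bcan, Hapln1, Hapln2 and Reln overlap.

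In bulk TRAP libraries, fewer cells of one type and less RNA per cell cannot be told apart, and glia are known sources of several of these mRNAs: oligodendrocytes for Tnr and Hapln2, astrocytes for Ncan, and oligodendrocyte precursors for Vcan. Of 8 astrocyte markers, 5 were higher in Dorsal and 1 higher in Ventral past the thresholds, and their summed level was 1856 to 2121 CPM in dorsal and 670 to 1227 CPM in ventral libraries. Of 8 oligodendrocyte markers, 4 were called dorsal-enriched and none ventral-enriched, at 2450 to 2917 CPM and 910 to 1744 CPM. In each of these lists 1 call remained with replicates 1 to 3 only. None of the markers in either list was at 0 in any library. The 6 precursor markers held no call in either direction by edgeR or DESeq2, with 1 unadjusted edgeR p below 0.05, and summed to 22.8 to 62.1 CPM in dorsal and 32.6 to 56.8 CPM in ventral libraries. The part of these glial mRNAs in the differences of Tnr, Ncan and Vcan was not tested.

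Reln, the most abundant of the other glycoproteins per kilobase, lay higher in ventral libraries. It measured 93.1 to 124 CPM in Dorsal (mean 106 ± 12.6, SD, n = 5) and 122 to 165 CPM in Ventral (mean 151 ± 16.9, SD, n = 5). The ranges overlapped only through Dorsal 1 and Ventral 2. The log2 fold change was -0.51 ± 0.12 (SE, edgeR adjusted p = 0.00481), and the log2 ratio of mean (CPM + 1), -0.50, did not reach the fold threshold. When GC content and length were corrected for, the log2 fold change of Reln was -0.71 with an edgeR adjusted p of 0.000432, and it was not called there either, since its CPM ratio stayed below the threshold. In replicates 1 to 3 the difference was -0.40 (edgeR adjusted p = 0.293).

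In the adult hippocampus reelin is made mainly by GABAergic interneurons and by persisting Cajal-Retzius cells. Of 10 interneuron markers, 3 were called ventral-enriched (Sst, Pvalb and Lhx6) and none dorsal-enriched, with summed levels of 3445 to 4674 CPM in dorsal and 4230 to 5525 CPM in ventral libraries. DESeq2 called 2 of them, without Pvalb, whose log2 ratio of mean (CPM + 1) was -0.57 there. Gad1, Gad2 and Slc32a1, which the study reported at comparable levels in dorsal and ventral samples, were not called. Their log2 fold changes were -0.46 (edgeR adjusted p = 0.0103), -0.15 and -0.06, and Gad2 made up most of both sums. Of 5 Cajal-Retzius markers, 3 were called ventral-enriched (Lhx1, Lhx5 and Nhlh2), with sums of 155 to 297 CPM and 338 to 464 CPM. Most of both sums came from Nhlh2 (166 ± 50.5 CPM in Dorsal, 326 ± 60.0 CPM in Ventral). The other markers, Trp73 (9.58 against 10.8 CPM) and Ebf3 (35.2 against 35.5 CPM), were not called. EdgeR called none of the markers of either list with replicates 1 to 3 only, and 3 of the interneuron and 2 of the Cajal-Retzius markers had an unadjusted p below 0.05. No marker of either list was at 0 in any library, and the part of these cells in the Reln difference was not tested. Of the 8 reelin receptors and adaptors, 2 were called dorsal-enriched, namely the receptors Vldlr (116 ± 17.2 against 74.0 ± 15.0 CPM, log2 fold change 0.64) and Lrp8 (132 ± 22.8 against 87.1 ± 23.6 CPM, log2 fold change 0.59), and none ventral-enriched. Over all tested protein-coding genes the corresponding shares were 11.4% and 10.3%.

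Of the remaining glycoproteins tested, 1 was called. Tnc, a glycoprotein of developing and reactive tissue, showed 2.18 ± 1.51 CPM in Dorsal and 0.540 ± 0.32 CPM in Ventral (SD, n = 5 each), with a log2 fold change of 1.85 ± 0.57 (SE, edgeR adjusted p = 0.02). Tnc exceeded 1 CPM in dorsal libraries only, so that it passed the filter through the group in which it was high. Without Dorsal 4 the edgeR adjusted p of Tnc was 0.0739. Fibronectin (Fn1), which binds integrins and collagens, showed 9.33 ± 5.35 CPM in Dorsal and 7.90 ± 0.95 CPM in Ventral (log2 fold change 0.25, edgeR adjusted p = 0.596). The thrombospondins are secreted proteins that promote synapse formation, and Thbs2 was the most abundant per kilobase, at 5.75 ± 3.17 and 5.45 ± 1.29 CPM. Thbs2, Thbs3 and Thbs4 were tested and not called, and Thbs1 did not pass the filter.

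Collagens of almost every structural type were detected at low levels. Of 44 collagen genes, 19 were tested, 7 were called dorsal-enriched and 2 ventral-enriched, against 11.4% and 10.3% of all tested protein-coding genes. Of these calls, Col1a2, Col4a5 and Col18a1 exceeded 1 CPM in dorsal libraries only and Col6a6 in ventral libraries only, so that they passed the filter through the group in which they were high. Among the 14 collagens above 1 CPM in at least 1 library of each group, 4 calls were dorsal and 1 was ventral, and no share of all genes was computed for that condition. The 25 untested ones did not exceed 3.08 CPM in any library. Among them was Col26a1 (0.347 ± 0.06 CPM in Dorsal, 0.543 ± 0.41 CPM in Ventral), the highest per kilobase of the collagens outside the other structural types. The most abundant collagen was Col25a1, a transmembrane collagen of neurons whose shed ectodomain is found in amyloid plaques. Col25a1 (chr3:130131501-130599877) measured 77.7, 65.9, 59.9, 65.6 and 67.2 CPM in Dorsal 1 to 5 and 38.9, 53.2, 39.2, 40.3 and 34.1 CPM in Ventral 1 to 5. The groups did not overlap, with Ventral 2 the highest ventral library, and the log2 fold change was 0.72 ± 0.13 (SE, edgeR adjusted p = 0.00145). With GC content and length corrected for, the log2 fold change of Col25a1 was 0.569 (edgeR adjusted p = 0.00780), under the fold threshold. Col25a1 stayed called there, since the threshold applied to the uncorrected CPM. The other tested transmembrane collagen, Col23a1, was not called (2.80 ± 0.97 against 2.16 ± 1.23 CPM).

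The fibril-associated collagens held one call in each direction. Col12a1 (chr9:79598991-79718831), which decorates collagen I fibrils, measured 0.188, 1.62, 0.952, 0.420 and 0.627 CPM in Dorsal 1 to 5 and 3.54, 2.37, 5.65, 3.35 and 5.61 CPM in Ventral 1 to 5. It was the one member with all ventral values above all dorsal ones, and its log2 fold change was -2.38 ± 0.45 (SE, edgeR adjusted p = 0.00128). Col9a3 (chr2:180597790-180622189), a chain of collagen IX, measured 3.66, 3.50, 3.40, 3.78 and 3.84 CPM in Dorsal 1 to 5 and 1.72, 2.64, 0.843, 1.96 and 1.46 CPM in Ventral 1 to 5. The dorsal values were tightly grouped above the ventral ones, with a log2 fold change of 1.09 ± 0.31 (SE, edgeR adjusted p = 0.0172). Without Ventral 5 the adjusted p of Col9a3 was 0.0509. The exons of Col9a3 overlap those of Tcfl5 over 6.07% of their length. Col19a1, the most abundant of this type per kilobase and known from interneurons, did not differ detectably (10.4 ± 4.37 against 10.5 ± 3.45 CPM).

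Among the chains of collagen VI, which forms beaded filaments, Col6a3 (chr1:90765923-90843971) measured 5.54, 5.19, 11.1, 6.59 and 9.18 CPM in Dorsal 1 to 5 and 0.222, 3.51, 0.169, 0.253 and 0.330 CPM in Ventral 1 to 5. The groups did not overlap, although Ventral 2 stood far above the other ventral libraries. The log2 fold change was 3.35 ± 0.58 (SE, edgeR adjusted p = 0.000716). The chains Col6a1 and Col6a2, with which Col6a3 assembles, did not pass the filter (0.424 and 0.657 CPM in their highest libraries). Col6a4, the most abundant of the type per kilobase, was not called (4.28 ± 0.57 against 5.58 ± 1.47 CPM). Col6a6 was called ventral-enriched on very few counts, 3 over all dorsal libraries and 64 over all ventral ones, a ratio of pooled rates of 19.1 with an exact 95% interval of 6.25 to 95.1 that covers counting error only. Its edgeR adjusted p was 0.0403, and the call was lost without any single dorsal library and without Ventral 4 (highest adjusted p 0.0812). Without Ventral 3 or Ventral 5 the gene did not pass the filter, so that it was called in 2 of the 10 fits with 1 library left out.

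Collagen I, the main fibrillar collagen, is built from Col1a1 and Col1a2, and both chains were called dorsal-enriched. Col1a1 showed 5.26 ± 2.97 CPM in Dorsal and 0.9998 ± 0.29 CPM in Ventral (SD, n = 5 each, log2 fold change 2.35 ± 0.55, SE, edgeR adjusted p = 0.00537), although Dorsal 2 lay at 0.519 CPM, below every ventral library. Col1a2 showed 1.19 ± 1.10 and 0.378 ± 0.20 CPM (log2 fold change 1.66 ± 0.63, SE, edgeR adjusted p = 0.0489). Its call was lost without Dorsal 4 and without each of the 5 ventral libraries, where the adjusted p reached 0.141. Without Dorsal 3 or Dorsal 5 it did not pass the filter. Col11a1 was tested and not called, and the 8 other fibrillar collagen genes did not pass the filter.

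Of the 5 tested network-forming collagens, 1 was called. Col4a1 and Col4a2, which assemble into the trimer common to all basement membranes, are transcribed in opposite directions from chromosome 8, and their annotated 5′ ends (11312826 and 11312805) overlap by 22 bases. Col4a2, the most abundant of this type per kilobase, showed 4.44 ± 3.91 CPM in Dorsal and 1.42 ± 0.51 CPM in Ventral (log2 fold change 1.72 ± 0.64, SE, edgeR adjusted p = 0.0507), and Col4a1 showed 1.77 ± 0.29 and 3.16 ± 1.48 CPM (log2 fold change -0.83 ± 0.40, SE, edgeR adjusted p = 0.128). Neither was called, and the ratio of Col4a2 to Col4a1 per kilobase was 0.194 to 6.46 in dorsal and 0.245 to 0.913 in ventral libraries. Col4a5, a chain of specialised basement membranes, was called dorsal-enriched at 1.14 ± 0.65 against 0.0572 ± 0.07 CPM (log2 fold change 4.35 ± 0.999, SE, edgeR adjusted p = 0.00589), with 85 counts over the dorsal and 4 over the ventral libraries and none in Dorsal 1. Col18a1, a multiplexin whose cleavage releases endostatin, was called dorsal-enriched at 0.920 ± 0.59 against 0.145 ± 0.11 CPM (log2 fold change 2.65 ± 0.72, SE, edgeR adjusted p = 0.00973).

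**Figure D4:**
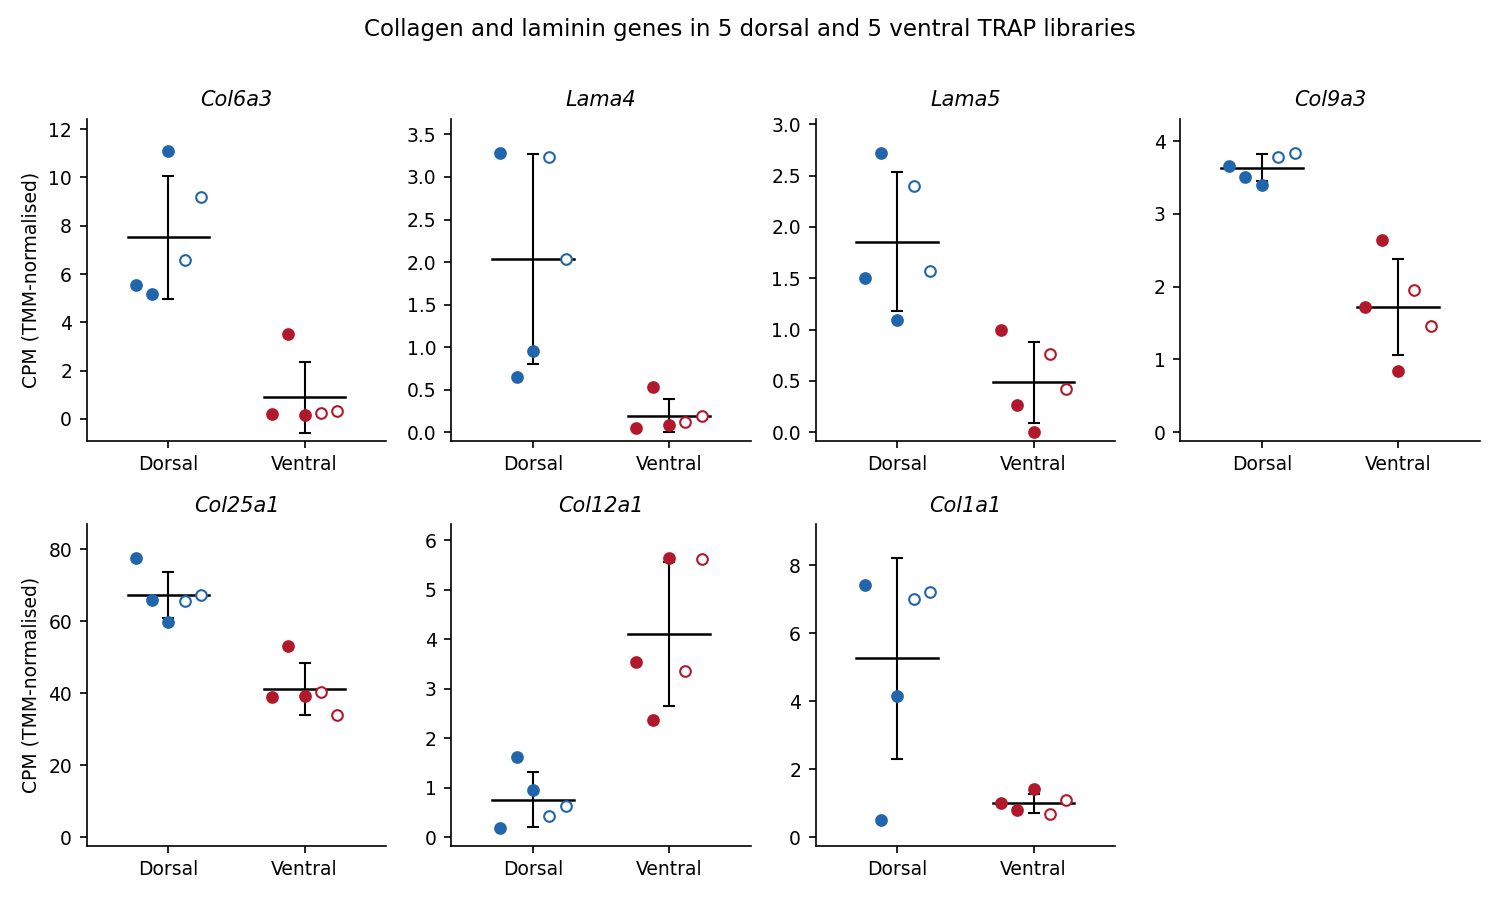
TMM-normalised CPM in each library of 7 called collagen and laminin genes; blue and red are Dorsal and Ventral, filled points are replicates 1 to 3, open points replicates 4 and 5, lines are means and whiskers the SD (n = 5). Col6a3, Lama4, Lama5, Col9a3 and Col25a1 lie higher in all dorsal libraries, Col12a1 in all ventral ones, and Col1a1 overlaps through Dorsal 2.

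Among the laminins, the alpha chains Lama4 and Lama5 were called dorsal-enriched and Lama1 ventral-enriched. Each of these exceeded 1 CPM only in libraries of the group in which it was called. The chains with the highest levels per kilobase, Lamc1 and Lamb1, were not called. Lamc1, the gamma chain of most laminins, showed 10.9 ± 1.70 CPM in Dorsal and 9.05 ± 1.37 CPM in Ventral (log2 fold change 0.24, edgeR adjusted p = 0.361). Lamb1 showed 13.8 ± 1.34 and 9.78 ± 1.09 CPM without overlap, and its log2 fold change of 0.49 ± 0.17 (SE, edgeR adjusted p = 0.0389) stayed under the fold threshold. The alpha chains, which bind the cellular receptors, held calls in both directions.

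Lama4, an alpha chain of vascular laminins (chr10:38965515-39110188), measured 3.29, 0.648, 0.952, 3.24 and 2.04 CPM in Dorsal 1 to 5 and 0.0554, 0.527, 0.0843, 0.126 and 0.188 CPM in Ventral 1 to 5. The dorsal values lay above all ventral ones, with Dorsal 2 and Ventral 2 the closest pair, and the log2 fold change was 3.41 ± 0.67 (SE, edgeR adjusted p = 0.00112). Lama5, another alpha chain of vascular laminins (chr2:180176373-180225859), measured 1.502, 2.72, 1.09, 2.40 and 1.57 CPM in Dorsal 1 to 5 and 0.997, 0.264, 0, 0.758 and 0.424 CPM in Ventral 1 to 5. These groups were separate but close, at Dorsal 3 and Ventral 1, and the log2 fold change was 1.82 ± 0.53 (SE, edgeR adjusted p = 0.0159). Lama1, an alpha chain of embryonic and meningeal basement membranes, was called ventral-enriched at 0.242 ± 0.23 against 1.67 ± 1.14 CPM (log2 fold change -2.68 ± 0.68, SE, edgeR adjusted p = 0.00601). Lama2 (log2 fold change 0.66, edgeR adjusted p = 0.218) and Lama3 (-0.63, 0.292) were not called. Of the other beta chains, Lamb3 showed 2.61 ± 1.37 CPM in Dorsal and 1.21 ± 0.43 CPM in Ventral (log2 fold change 1.10, edgeR adjusted p = 0.0693), and Lamb2 was not called either.

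Vascular, meningeal and choroid plexus cells are the textbook sources of most collagens and laminins in the brain. Of 9 endothelial markers none was called in either direction by edgeR or DESeq2, 3 had an unadjusted edgeR p below 0.05, and their sum was 16.7 to 50.9 CPM in dorsal and 15.3 to 65.5 CPM in ventral libraries, with Cldn5 at 0 in at least 1 library. Of 8 mural cell markers 7 were tested, 1 (Tagln) was called ventral-enriched and none dorsal-enriched, at sums of 92.7 to 146 and 104 to 125 CPM, with Kcnj8 and Tagln at 0 in some libraries. Of 8 fibroblast markers 5 were tested, Dcn and Twist1 were called ventral-enriched and none dorsal-enriched, with Slc6a13, Twist1 and Igf2 at 0 in some libraries and with sums of 9.48 to 12.8 CPM in dorsal and 19.0 to 30.3 CPM in ventral libraries. Of 7 choroid plexus markers Clic6 and Kl were called dorsal-enriched and none ventral-enriched, at sums of 145 to 1048 and 207 to 458 CPM, with Folr1 at 0 in at least 1 library. Of 7 microglial markers 1, C1qa, was called dorsal-enriched, at sums of 24.7 to 27.9 and 15.6 to 35.8 CPM, and none was at 0. No marker of these 5 lists was called by edgeR with replicates 1 to 3 only, and 1 fibroblast, 2 choroid plexus and 1 microglial marker had an unadjusted p below 0.05. Tagln and Twist1 stayed below 1 CPM in all dorsal libraries and C1qa in all ventral ones, so that they passed the filter only through the group in which they were high. The part of these cell types in the collagen and laminin differences was not tested.

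Genes that make, bind or cleave the matrix were counted in the same fit. Of 24 tested genes for collagen synthesis and processing, 5 rose in Dorsal and 1 in Ventral by these criteria (median log2 fold change 0.36). The largest differences were those of Crtap, a component of the prolyl 3-hydroxylation complex (0.0664 ± 0.12 against 1.95 ± 1.27 CPM), the prolyl 3-hydroxylase gene P3h3 (1.84 ± 1.11 against 0.177 ± 0.20 CPM), the procollagen C-proteinase gene Bmp1 (4.36 ± 1.66 against 1.10 ± 0.78 CPM) and its enhancer Pcolce2 (3.41 ± 1.73 against 1.196 ± 0.70 CPM). Crtap stayed below 1 CPM in all dorsal libraries and P3h3 in all ventral ones, so that each passed the filter only through the group in which it was high. Of 25 tested matrix receptors, 9 were dorsal-enriched and 3 ventral-enriched (median log2 fold change 0.32). The integrin chains Itgb3 (2.46 ± 1.29 against 0.095 ± 0.06 CPM) and Itga2, a collagen-binding chain (1.99 ± 0.73 against 0.171 ± 0.13 CPM), were dorsal-enriched, and Itgb6 (0.096 ± 0.12 against 2.27 ± 1.76 CPM) and Itga9, a tenascin-binding chain (2.73 ± 0.50 against 9.40 ± 9.35 CPM), ventral-enriched. Itgb3 and Itga2 stayed below 1 CPM in all ventral libraries and Itgb6 in all dorsal ones. These 3 thus passed the filter only through the group in which they were high.

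The same shares, 11.4% dorsal and 10.3% ventral, apply to the 3 lists that follow. Of 10 tested basement membrane genes outside the collagens and laminins, 5 were dorsal-enriched and none ventral-enriched (median log2 fold change 0.81). They included Ntn4, a netrin that binds laminin (12.7 ± 6.55 against 3.31 ± 0.36 CPM), Agrn, the proteoglycan agrin (21.9 ± 4.77 against 11.6 ± 2.04 CPM), Fras1 (12.04 ± 4.75 against 6.41 ± 0.61 CPM) and Frem2 (3.43 ± 1.42 against 1.10 ± 0.97 CPM). Of 6 tested genes for hyaluronan and other neural proteoglycans, only Hyal2, a hyaluronidase, was called, as ventral-enriched (1.53 ± 1.15 against 4.02 ± 1.67 CPM), and the list median was 0.06. Of 14 tested proteases and inhibitors, the membrane-bound metalloproteinase gene Mmp16 (54.2 ± 6.16 against 32.2 ± 5.50 CPM) and the inhibitor gene Timp4 (22.5 ± 7.29 against 12.04 ± 5.56 CPM) were called dorsal-enriched and none ventral-enriched, with a median of 0.44. With replicates 1 to 3 only, none of the 85 genes of these lists and of the reelin receptor list that were tested was called by edgeR, and 16 had an unadjusted p below 0.05.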

How the data were processed

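Mouse hippocampal TRAP RNA was sequenced as 50 bp paired ends after amplification (Ovation RNAseq V2, TruSeq v2). Per the study's methods the authors aligned reads to GRCm38 with STAR 2.5.2b and counted fragments per gene with HTSeq 0.7.2. The deposited values are raw counts per Ensembl gene. The annotation release and the strand setting of the counting are not given in the sources used here. The lines that name no gene were left out (2 stray lines and the HTSeq summary lines per table). Symbols and exonic lengths came from GENCODE M21, in which 54809 of 54838 gene IDs matched. Counts were tested with edgeR 4.0.16 in R 4.3.3 (TMM normalisation, quasi-likelihood test, no covariates, 16806 genes exceeding 1 CPM in 2 or more libraries, Benjamini-Hochberg over all of them). The SE was derived from the fold change and its F statistic. CPM are TMM-normalised. DESeq2 1.42.0, other normalisations, filters, thresholds, a GC and length correction (mgcv 1.9.3), a replicate block and leaving out libraries served as alternatives. The fit was checked on simulated counts. Named were all called members, the member of each structural type with the highest level per kilobase, Reln, Col12a1, the perineuronal genes, and in each gene list the called genes, at most 4, with the largest fold change. Members, lists and named genes were chosen with earlier results of these data known. Intervals and detection limits cover counting error only. The labels do not say that replicates are separate animals beyond the pools, so p-values measure the spread between these libraries. Values of 1 member are not reported here; it is included in the counts.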

Additional observations from a re-analysis of the deposited data

Results flagged for a closer look

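In 7 of the 60 groups of 5 libraries examined, 1 library stood apart from the other 4 beyond the Dixon criterion for 5 values (0.71), and chance alone marks about 1 group in 20. Col6a3 reached 3.51 CPM in Ventral 2, against 0.169 to 0.330 CPM in the other ventral libraries. Lama4 was also highest in Ventral 2, at 0.527 CPM against 0.0554 to 0.188 CPM, and so was Hapln2, at 1.76 CPM against 0.609 to 0.758 CPM. Hapln2 stood apart in Dorsal 3 as well, at 2.99 CPM against 1.49 to 1.62 CPM. Col4a5 had 0 CPM in Dorsal 1 and 1.32 to 1.56 CPM in the other dorsal libraries. Hapln1 was low in Dorsal 2, at 36.8 CPM against 56.3 to 60.5 CPM. Hapln4 was low in Ventral 3, at 15.3 CPM against 22.4 to 24.8 CPM. Replicates 4 and 5 of each group lay between replicates 1 and 3 for most genes, and the part of this in the gaps was not tested.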

How the results depend on the processing

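The count of 13 dorsal-enriched members changed to 0 and that of 4 ventral-enriched members to 0 with replicates 1 to 3 of each group only, an alternative chosen after seeing the data. Requiring an adjusted p below 0.01 left 8 dorsal-enriched members, and the stricter expression filter (CPM above 1 in 5 libraries) left 2 ventral-enriched ones. Under every other setting the counts stayed within 1.5 times, from 10 to 18 dorsal and from 3 to 6 ventral, and leaving out 1 library gave 11 to 15 dorsal and 3 to 5 ventral calls. The membership changed more than the counts under the stricter filter. It tested 34 members and gave 10 dorsal calls, of which 8 were also called in the main fit. Col1a2, Col4a5, Col18a1, Lama4 and Tnc did not pass this filter. The replicate numbers revealed no pairing: same-numbered deviations correlated at -0.0317 to 0.0695, and 2 of 5 dorsal libraries correlated best with their own number. This does not bear on the sharing of mice that follows from the study's methods, since the numbers need not match the pools. The fit with the replicate block gave 13 dorsal and 4 ventral calls, and 12 and 4 with the GC and length correction added. In these fits and with the correction alone, the fold threshold applied to the uncorrected CPM, so only the adjusted p could change a call. The counts therefore do not test the fold part of the calls. With the correction alone, Col25a1 stayed called at a log2 fold change of 0.569, under the threshold. Hapln1 (-0.94) and Reln (-0.71) lay past it and were not called. Col1a2 lost its call under DESeq2, the GC and length correction, total-count scaling, the earlier edgeR dispersions, no filter and the block. Lama5 lost it under the earlier dispersions and Vcan under the block with the correction. In Col4a2 and Hapln2 calls appeared under some of these settings. Signs reversed under at least 1 setting for 7 of the 43 tested members, all uncalled. Of these Col11a1, Col6a5, Thbs4 and Col4a3bp were not among the named genes, and 3 were. Col19a1 was 0.0080 with DESeq2 size factors, 0.0194 with upper-quartile factors, 0.0026 with the stricter filter and 0.0133 in DESeq2, and lay between -0.23 and 0.16 with 1 library left out. Thbs2 was 0.0219 and 0.0319 with those factors, 0.00071 with total counts, 0.0161 with the stricter filter, 0.10 in DESeq2, 0.072 with earlier dispersions, 0.0302 with the block and 0.24 in replicates 1 to 3, and lay between -0.31 and 0.17 with 1 library left out. Bcan was 0.0356 with the correction, 0.0239 with the block and the correction and 0.14 in replicates 1 to 3, and lay between -0.22 and 0.0859 with 1 library left out. The cause was not tested in any of these. Depth limits the low collagens and laminins, for which 3 counts equal 0.146 to 0.269 CPM.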
